A study of Homo sapiens with 4 samples.

Results

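The cytosolic ribosomal protein genes were followed as a family in T24 cells, a human bladder carcinoma line, with and without overexpression of CBX7, a chromobox protein of the Polycomb repressive complex PRC1. Members were the rows of the gene table whose symbol has the form of a ribosomal protein of the large subunit (RPL, RPLP0 to RPLP2) or the small subunit (RPS, RPSA), with a length of at least 200 bases and a mean of at least 10 counts over the libraries. Of 60623 rows, 84 had such a symbol and 82 met both limits, 50 for the 60S and 32 for the 40S subunit. The members were thus chosen by symbol, length and the measured mean count, and the count limit makes their levels a description. RNA-seq was run on 4 libraries, 2 of control and 2 of CBX7-overexpressing cells. Both groups were T24 cells grown in RPMI with fetal calf serum, and the study describes CBX7 cloned into a pCDH-3xFLAG vector. The labels call the controls CON and do not state what they carried. They also do not state whether libraries of a group came from separate cultures, so the p-values below measure the spread between these libraries, which may be technical. All libraries are of 1 cell line.

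Ribosomal proteins coat the rRNA cores of the 40S subunit, which decodes the message, and of the 60S subunit, which forms the peptide bond. Cells make them in near-equal numbers from scattered single genes. Their messages are short, abundant and mostly begin with a C followed by a run of pyrimidines, the 5′ terminal oligopyrimidine (TOP) motif, through which mTORC1 and LARP1 adjust their translation. A few members have paralogs (RPL7L1, RPL22L1, RPL26L1, RPL39L and RPS27L here), and the large subunit carries a lateral stalk of RPLP0, RPLP1 and RPLP2 that recruits the translation GTPases.

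CBX7 itself had 261 and 203 counts in control replicates 1 and 2, and 42853 and 35641 counts in CBX7 replicates 1 and 2, so each library followed its label. The counts do not separate introduced from endogenous CBX7. Total counts lay between 20800910 and 25135488. Of 11 urothelial markers, 4 (KRT7, KRT8, KRT18 and PPARG) reached 10 TPM (a length-scaled level relative to the library's total) in every library, whereas KRT5, TP63, UPK1B, UPK2 and UPK3A had at most 3 counts in each. The summed level of the 11 was 3173 to 3273 TPM in control and 3375 to 3752 TPM in CBX7 libraries. Of the remaining markers, KRT19 had 156 and 120 counts in control and 446 and 285 counts with CBX7. GATA3 had 3 and 4 counts in control and 14 and 22 counts with CBX7. The 8 markers of blood, endothelial, stromal and liver cells summed to 6.21 to 10.4 TPM in every library, and 5 of them had at most 3 counts in each. The libraries differed in how counts fell over short and long genes, most of all CBX7 replicate 1, as described below.

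The first bases of the messages are shown because a pyrimidine start is the sequence feature for which these messages are known. Annotated starts of 66 of the 82 members were found in the RefSeq table of GRCh38.p14. Each line below gives 30 bases on the gene's strand, 5′ to 3′, from 10 bases before the annotated start to 20 from it, and the capitals mark the unbroken run of C and T that begins at the start. The stalk genes come first, followed by RPS6 (the S6 kinase substrate), the members with extreme values of level or ratio, RPL22, RPL26 and RPS27 each with its paralog, and the paralog RPL7L1 alone.
RPLP0, chr12:120201092-120201121, minus strand: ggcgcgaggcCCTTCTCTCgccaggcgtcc
RPLP1, chr15:69452808-69452837, plus strand: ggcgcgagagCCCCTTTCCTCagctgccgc
RPLP2, chr11:809957-809986, plus strand: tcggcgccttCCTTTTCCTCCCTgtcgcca
RPS6, chr9:19380217-19380246, minus strand: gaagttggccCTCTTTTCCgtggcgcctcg
RPL35, chr9:124861938-124861967, minus strand: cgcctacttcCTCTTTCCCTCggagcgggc
RPL38, chr17:74203668-74203697, plus strand: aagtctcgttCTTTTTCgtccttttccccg
RPL41, chr12:56116623-56116652, plus strand: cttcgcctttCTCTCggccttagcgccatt
RPL39, chrX:119791611-119791640, minus strand: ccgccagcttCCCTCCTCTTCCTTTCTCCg
RPL10, chrX:154398367-154398396, plus strand: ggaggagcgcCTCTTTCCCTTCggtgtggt
RPS29, chr14:49598691-49598720, minus strand: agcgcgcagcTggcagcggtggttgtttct
RPL22, chr1:6199576-6199605, minus strand: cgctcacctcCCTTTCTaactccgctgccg
RPL22L1, chr3:170870176-170870205, minus strand: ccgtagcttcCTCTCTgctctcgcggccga
RPL26, chr17:8383174-8383203, minus strand: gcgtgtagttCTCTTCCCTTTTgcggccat
RPL26L1, chr5:172958719-172958748, plus strand: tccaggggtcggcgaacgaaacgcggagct
RPS27, chr1:153990752-153990781, plus strand: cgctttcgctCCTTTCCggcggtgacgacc
RPS27L, chr15:63157458-63157487, minus strand: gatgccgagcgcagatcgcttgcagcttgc
RPL7L1, chr6:42879606-42879635, plus strand: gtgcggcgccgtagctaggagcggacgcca

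A C at the annotated start followed by at least 4 more C or T was found in 47 of the 66 matched members (71.2%), against 5.14% of the 27305 genes in the table and 6 of 69 mitochondrial ribosomal protein genes (8.70%). RPLP0, RPLP1 and RPLP2 all had it, with runs of 9, 11 and 13 pyrimidines. Of the paralogs shown, RPL22L1 kept such a start, as did its parent RPL22, whereas RPL26L1, RPS27L and RPL7L1 had no pyrimidine at the annotated start. RPS29 had a single T. RPL10 had 3 annotated starts and RPL26L1 had 2, of which 1 each is shown. The annotated start need not be the one used in T24 cells.

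In the window from 250 bases before to 50 after the start, CCGGAA on either strand, the core of ETS-family sites, occurred in 38 members (57.6%), in 62.3% of mitochondrial ribosomal protein genes and in 20.1% of all genes. The E-box CACGTG occurred in 5 members (7.58%) and in 8.77% of all genes. TATAAA on either strand occurred in 6 members (9.09%) and in 14.0% of all genes. Between 40 and 15 bases before the start, on the gene's strand, TATAAA occurred in 3 members (4.55%) and in 2.90% of all genes. These matches are descriptions of the letters in the windows. The 47 members with the pyrimidine start had a median level of 2529 TPM and the 19 others 2395 TPM.

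The family was a large part of the transcriptome. Its 82 genes held 23.5% and 22.7% of TPM in control replicates 1 and 2, and 26.1% and 22.1% in CBX7 replicates 1 and 2. CBX7 replicate 1 was the highest library and CBX7 replicate 2 the lowest, so the groups overlapped. The mean share was 23.1% ± 0.619 in control and 24.1% ± 2.83 in CBX7-overexpressing cells (SD, n = 2 each). The difference of 1.03 percentage points had an exact two-sided permutation p = 1, where 0.333 is the smallest p that 2 against 2 libraries allow. As shares of counts, which are not scaled by length, the values were 7.63% and 7.10% in control, and 9.59% and 6.83% with CBX7. The 60S genes held 13.3% to 15.8% of TPM and the 40S genes 8.83% to 10.4%, with the same library highest and the same library lowest in each. In bulk RNA, fewer cells of a kind and less RNA per cell cannot be told apart.

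**Figure D1:**
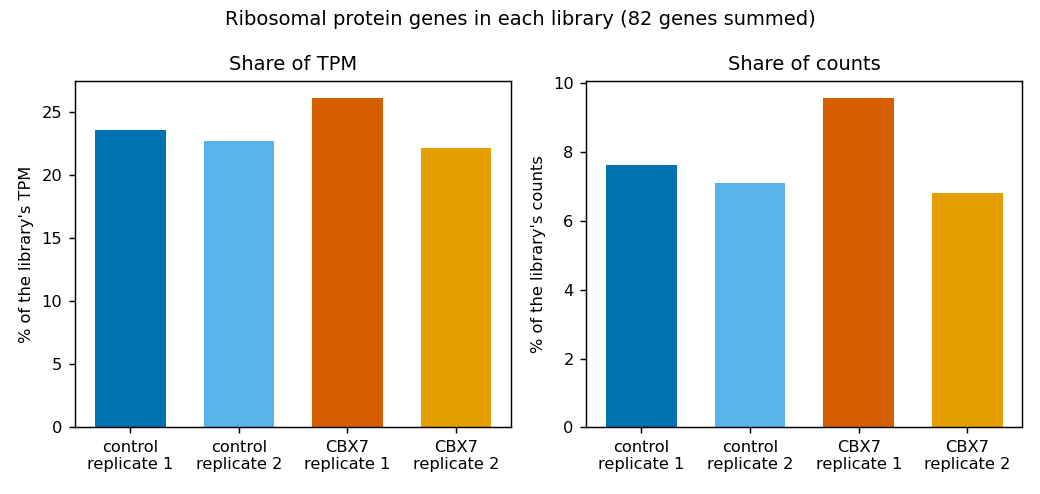
Bars give the percentage of each library's TPM (left) and of its counts (right) that the 82 ribosomal protein genes hold, 1 bar per library. CBX7 replicate 1 has the highest bar in both panels (26.1% of TPM, 9.59% of counts) and CBX7 replicate 2 the lowest (22.1% and 6.83%).

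The members lie on 21 chromosomes, with 12 on chromosome 19. Levels differed widely between members, although the proteins are needed in near-equal numbers. The mean level over the 4 libraries ran from 51.2 TPM (RPS27L) to 7801 TPM (RPL41), with a median of 2398 TPM. Without the 5 paralogs, the remaining 77 genes ran from 603 TPM (RPS26) to 7801 TPM, a 12.9-fold range with an SD of 0.86 on the log2 scale. The 46 genes of the 60S and the 31 of the 40S subunit had medians of 2758 and 2529 TPM. The order was kept between libraries: Spearman's rho of log2 TPM over the 82 members was 0.997 for the control pair and 0.992 for the CBX7 pair. Pearson's r was 0.999 and 0.996, with the low paralogs included. The points share each gene's length and annotation.

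The highest mean level over the libraries belonged to RPL41 (ENSG00000229117, chr12:56116586-56117943, plus strand, GRCh38), the gene of a very short 60S peptide. Its values were 7849 and 7574 TPM in control, below RPL10 in both, and 8573 and 7209 TPM in CBX7 libraries. RPL10, a 60S protein that joins late and lies near the peptidyl transferase centre, had 8077 and 7672 TPM in control and 7658 and 7304 TPM with CBX7. RPS27, a zinc-finger protein of the 40S subunit, had 7805 and 7539 TPM in control and 7896 and 7172 TPM with CBX7. The ranges of these 3 genes overlapped. That of RPL39 overlapped all of them, and that of RPS2 overlapped those of RPL41 and RPS27, so the order is not resolved. RPL39, a small protein of the 60S exit tunnel, had 7043, 6789, 7995 and 6972 TPM in the same library order. RPS2, at the mRNA entry of the 40S subunit, had 6471, 6392, 7226 and 6260.4 TPM. RPS2 had the highest mean count of the family (85281), whereas RPL39, with a similar TPM, had 18387 counts. TPM and counts thus ranked the members differently: the counts behind 1 TPM, a stand-in for the gene length used in the deposited scaling, ran from 1.10 for RPS29 to 22.3 for RPS4X among the 77 genes, a 20.3-fold range. The deposited length column had a median of 787.5 bases for the members and 2867 for all genes tested. It exceeded 2000 bases for 12 members, among them RPL37 with 7573 bases but 8.17 counts behind 1 TPM, against 20.2 for RPL22 with 2061 bases, so the 2 measures of length can disagree for a gene.

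**Figure D2:**
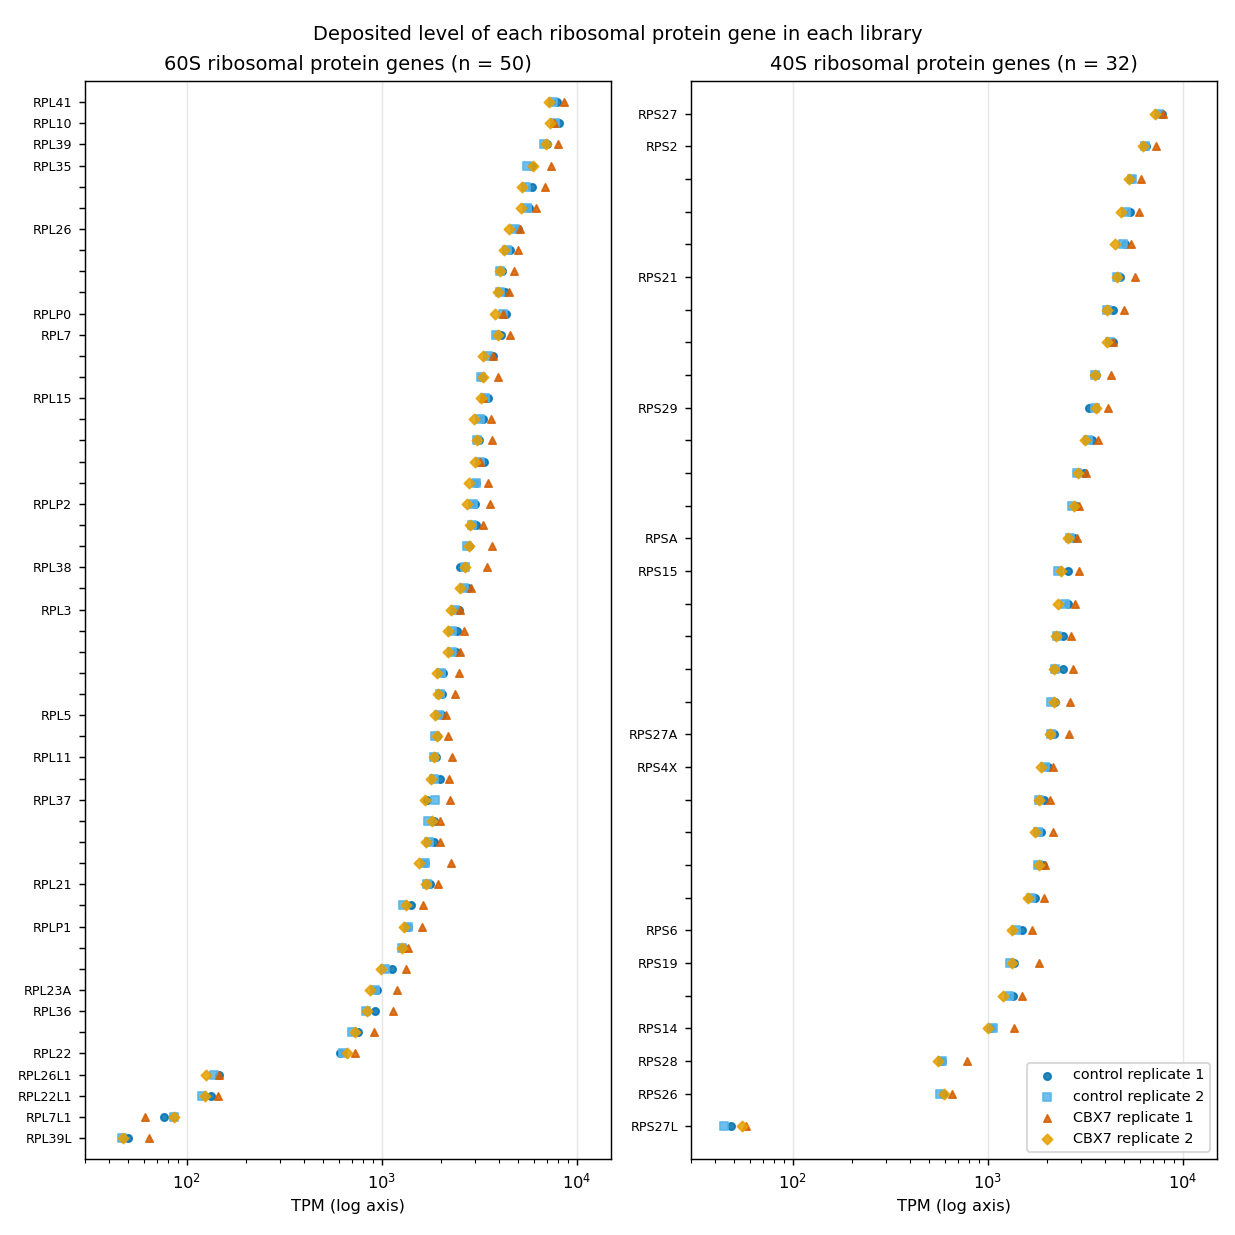
Each row is a ribosomal protein gene (those described in the text are labelled) and each marker the deposited TPM in 1 library, on a log axis, with the 60S genes left and the 40S genes right. The markers of a gene lie close together against the distance between genes, the 5 paralogs lie lowest, and CBX7 replicate 1 (triangles) is most often on the right.

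The 5 paralogs formed the bottom of the order, from 51.2 to 139 TPM, below RPS26 at 603 TPM. Each was measured well under its parent. RPL22L1 came closest, at 18.6% to 21.9% of RPL22, an RNA-binding 60S protein. RPL26L1 was at 2.79% to 2.94% of RPL26, and RPL7L1, linked to 60S assembly, at 1.35% to 2.22% of RPL7. RPL39L, best known from testis, was at 0.675% to 0.800% of RPL39. RPS27L, described as a p53-responsive gene, was at 0.591% to 0.767% of RPS27. Closest to the count limit were RPL39L (mean of 461.5 counts), RPS27L (576 counts) and RPL22L1 (1094.5 counts). The rows just outside it were RPL3L, the muscle paralog of RPL3, with 1, 0, 1 and 0 counts, and RPL10L, the testis paralog of RPL10, with 0 counts in each library. The shortest members, RPS27 (352 bases), RPL39 (390.0 bases) and RPS21 (401 bases), lay clear of the length limit. In T24 cells RPL22 was itself among the lower genes at 657 TPM, and RPL22L1 at 130.2 TPM was the paralog with the largest share of its pair.

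The question of the series, whether CBX7 alters expression, was first asked of the family with both replicates together. No ribosomal protein gene passed the test. Of the 82 members, 0 were higher and 0 lower at an adjusted p under 0.05 (edgeR quasi-likelihood test, Benjamini-Hochberg over 14862 genes), where 0.0202% of all genes tested were called higher and 0% lower. At an unadjusted p under 0.05 there were also 0 members, against 4.74% of all genes, and DESeq2's Wald test and limma on log2(TPM + 1) called 0 members, where they called 0.451% and 0.0135% of all genes. With the replicate number as a block, 0 members were called, where 2.43% of all genes were. The lowest adjusted p of a member was 0.951 (edgeR). The fitted log2 fold changes (CBX7 against control) nevertheless leaned to one side. Their median was 0.21, from -0.02 for RPL7L1 to 0.44 for RPS29, and 81 of 82 were above 0, against 50.3% of all genes tested with a median of 0.00. The lean depended on the scale. In limma on log2(TPM + 1) the members' median was 0.06, with 67 above and 15 below 0, where all genes had a median of -0.08. With counts corrected on deposited length (edgeR), it was 0.02, with 48 above and 34 below 0. Without that correction, the 60S and 40S members had the same median of 0.21.

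With the replicates apart, the lean came from 1 library. For CBX7 replicate 1 against control replicate 1, the log2 ratio of CPM (counts relative to the library total, scaled by TMM) had a median of 0.44 over the members, from -0.03 for RPL7L1 to 0.83 for RPS29, and 81 of 82 members lay above 0 (all genes 49.9%). For CBX7 replicate 2 against control replicate 2, the median was -0.06, from -0.19 for RPL37 to 0.13 for RPS27L, and 12 members lay above and 70 below 0 (all genes 48.6% above). The spread between members was small in both, with an SD of 0.13 in the first pair and 0.06 in the second, against 0.50 and 0.39 over all genes. The labels do not say whether a replicate number marks a shared batch or day, so the libraries were also ranked without pairing: 81 of 82 members were highest in CBX7 replicate 1 (40.3% of all genes) and 68 were lowest in CBX7 replicate 2 (25.7% of all genes).

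The 2 libraries of each group were then set against each other. Between the control libraries the members differed by a median of 0.11 (control replicate 1 over 2, log2), from -0.17 for RPS29 to 0.199 for RPS15, and all 82 stayed under 0.2 in size. Between the CBX7 libraries they differed by a median of 0.60, from -0.12 for RPL7L1 to 0.82 for RPS28, and 81 of 82 exceeded 0.3. Relative to Poisson noise, the chi-square per degree of freedom over the members was 8.06 for the controls and 48.8 for CBX7 replicates 1 and 2 (6.43 and 59.5 over all genes). In CPM, the scale of all such counts unless TPM is named, both CBX7 libraries lay above both controls for 1 member, RPS27L, or 1.22% of members, where 15.4% of all genes did so. They lay below both controls for 0 members, against 14.8% of all genes. In the deposited TPM, which is scaled by length within each library, the counts were different. Both CBX7 libraries lay above both controls for 8 members (9.76%, all genes 12.2%), among them RPS27L, RPL35, RPS29, RPL22 and RPS26. They lay below both for 3 (3.66%, all genes 17.4%), among them RPL10 and RPL15. CBX7 replicate 1 was the highest library in TPM for 74 of the 82 members and for 17.3% of all genes.

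**Figure D3:**
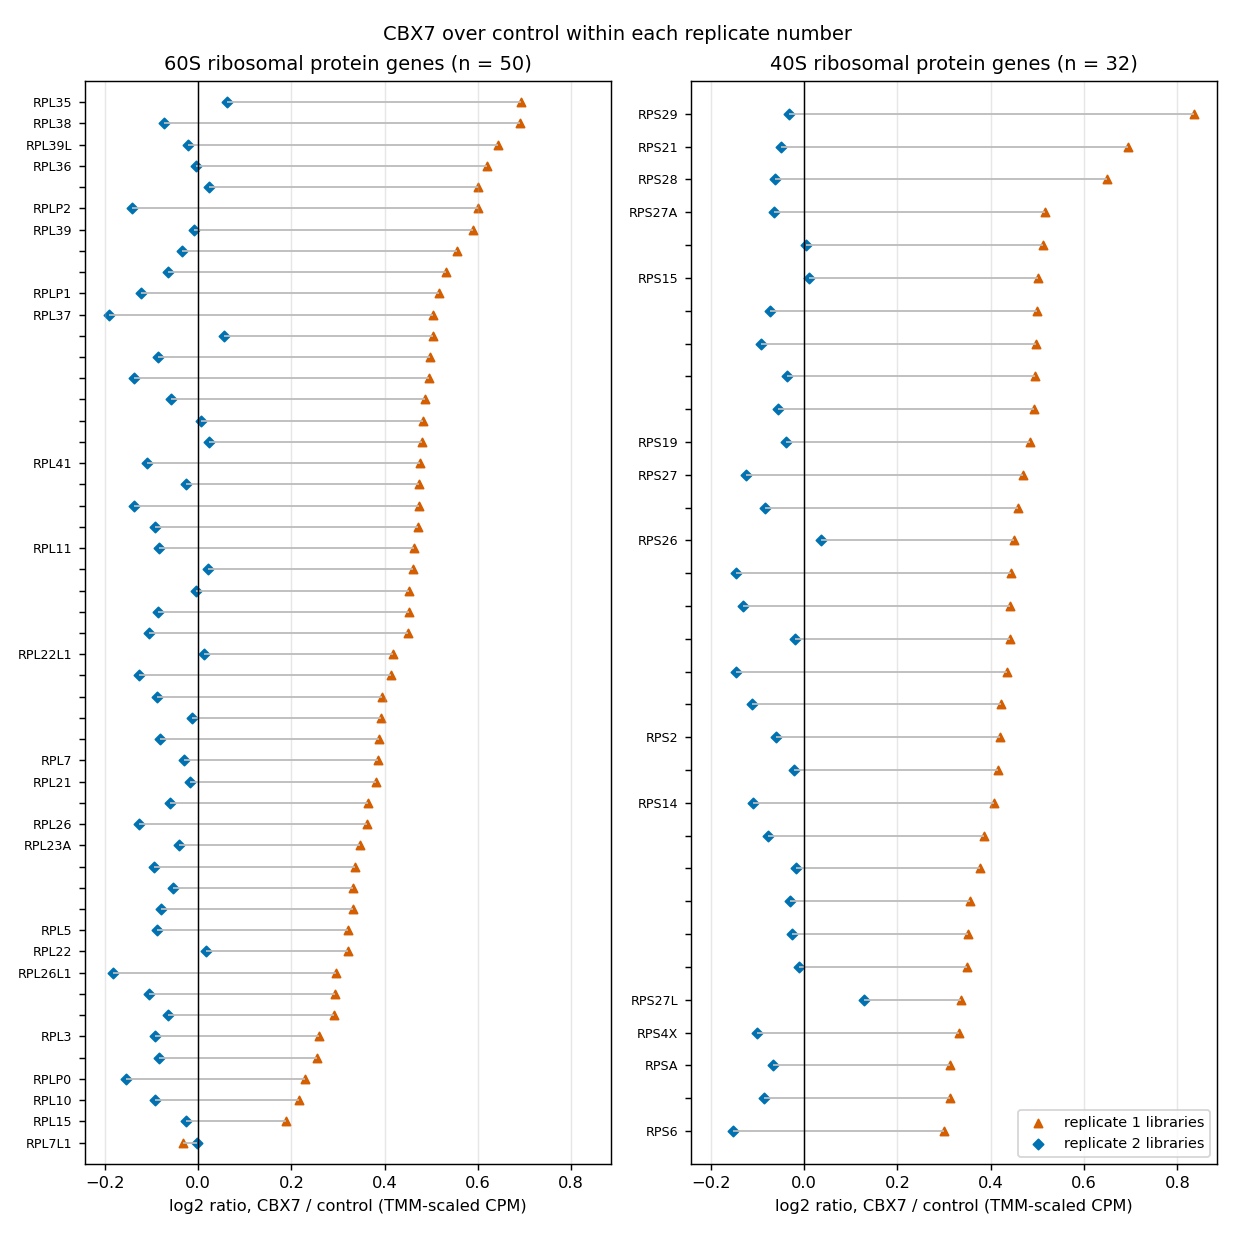
Each row is a gene, labelled where the text describes it, and the markers give the log2 ratio of TMM-scaled CPM, CBX7 over control, for the replicate 1 libraries (triangles) and the replicate 2 libraries (diamonds). The triangles centre on 0.44 and all but RPL7L1 lie right of 0, whereas the diamonds centre on -0.06 and 70 of 82 lie left of 0.

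The member with the highest fitted change was RPS29 (ENSG00000213741, chr14:49570984-49599164, minus strand, GRCh38), which encodes a small zinc-binding protein of the 40S head. It had 142 and 160.4 CPM in control, and 254 and 157 CPM in CBX7 replicates 1 and 2. CBX7 replicate 1 was the high library and CBX7 replicate 2 lay between the controls. In TPM it had 3295 and 3521 in control and 4099 and 3560 with CBX7, so on that scale both CBX7 libraries were above both controls. Its log2 fold change was 0.44 ± 0.25 (SE, n = 2 per group), with an adjusted p of 0.951 (edgeR). RPL35 (ENSG00000136942, chr9:124857880-124861981, minus strand), whose protein lies at the mouth of the exit tunnel, had 865 and 811 CPM in control and 1398 and 846 CPM with CBX7. In CPM again only CBX7 replicate 1 was above both controls, whereas in TPM both CBX7 libraries were (5849 and 5512 TPM in control, 7336 and 5928 TPM with CBX7). The log2 fold change was 0.42 ± 0.25 (edgeR adjusted p = 0.951). RPS21, a 40S protein, had 383, 379.9, 619 and 367 CPM, and RPL36, a 60S protein, 258, 227, 397 and 226 CPM in the same order. In both, CBX7 replicate 2 was the lowest of the 4 libraries. RPL39L had 437 and 350.02 counts in control and 692 and 367 counts with CBX7, with a log2 fold change of 0.37 ± 0.28. RPS28, whose CBX7 libraries differed most among the members, had 181 and 168 CPM in control and 284 and 161 CPM with CBX7.

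At the other end, RPL7L1 (ENSG00000146223, chr6:42879618-42889925, plus strand) was the member that did not follow the rest. It had 172 and 183 CPM in control and 168 and 183 CPM in CBX7 libraries, so the CBX7 replicate 1 value was its lowest. RPL7L1 also had by far the most counts behind 1 TPM of the members, 52.6, against 13.1 for RPL7. RPL10 had 2647 and 2437 CPM in control and 3077 and 2287 CPM with CBX7, and a log2 fold change of 0.08 ± 0.18. RPL15, a 60S core protein, had 1401 and 1296 CPM in control and 1597 and 1273 CPM with CBX7. RPL26L1 had 1193, 987, 1483 and 926 counts. In these 3 genes CBX7 replicate 1 was still the highest library in CPM, with log2 ratios to control replicate 1 of 0.22 for RPL10, 0.19 for RPL15 and 0.30 for RPL26L1, below the family's median of 0.44. Per length it was not. RPL10 had 8077 and 7672 TPM in control and 7658 and 7304 TPM with CBX7, and RPL15 had 3515 and 3369 TPM in control and 3312 and 3231 TPM with CBX7, so both CBX7 libraries were below both controls. RPL26L1 had 147 and 138 TPM in control and 146 and 125 TPM with CBX7, so control replicate 1 was the highest.

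RPS27L (ENSG00000185088, chr15:63125872-63158021, minus strand) was the sole member whose groups did not overlap in CPM, and in TPM it was 1 of the 8 above both controls. It had 23.8 and 22.1 CPM in control, and 30.1 and 24.2 CPM with CBX7. CBX7 replicate 2 exceeded the higher control by a small margin. The log2 fold change of RPS27L was 0.24 ± 0.16 (edgeR adjusted p = 0.951), and its length-scaled levels were 47.9 and 44.6 TPM in control and 57.3 and 55.04 TPM with CBX7. Its parent RPS27 had log2 ratios of 0.47 and -0.12 in the replicate 1 and 2 libraries, where RPS27L had 0.34 and 0.13.

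None of the stalk genes passed the edgeR test, and the differences between them were not tested. RPLP0, the anchor of the stalk, had 2572 and 2398 CPM in control and 3016 and 2155 CPM with CBX7, a log2 fold change of 0.06 ± 0.19. RPLP1 and RPLP2, the acidic partners, had log2 fold changes of 0.24 ± 0.23 and 0.28 ± 0.26. In the replicate 1 libraries the log2 ratios were 0.23 for RPLP0, 0.52 for RPLP1 and 0.60 for RPLP2, and in the replicate 2 libraries -0.15, -0.12 and -0.14. The level per length ran in another order, with 3793 to 4312 TPM for RPLP0, 2730 to 3569 TPM for RPLP2 and 1296 to 1607 TPM for RPLP1.

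Members known for links to signalling, p53 or disease were also highest in CBX7 replicate 1. RPL5 and RPL11, which with 5S rRNA bind MDM2, had log2 fold changes of 0.14 ± 0.20 and 0.22 ± 0.22, at 1870.1 to 2120.4 TPM and 1838 to 2283 TPM. RPS6 had 0.10 ± 0.20, at 1336 to 1685 TPM, and CBX7 replicate 2 was its lowest library. RPSA, also known as a laminin receptor precursor, had 0.14 ± 0.19, at 2574 to 2873 TPM. RPS27A, made as a fusion with ubiquitin, had 0.27 ± 0.24, at 2077 to 2614 TPM. RPS14, which lies in the 5q- deletion of myelodysplasia, had 0.18 ± 0.22, at 997 to 1356 TPM. RPS19, the gene most often mutated in Diamond-Blackfan anaemia, had 0.26 ± 0.24, at 1295 to 1829 TPM. None of these 7 genes passed the edgeR test.

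The size of the ratio in the replicate 1 libraries went with gene length. Across the 82 members, Spearman's rho between that ratio and the counts behind 1 TPM was -0.57, against -0.02 for the replicate 2 libraries, with rho of -0.39 on the deposited length and 0.12 on GC content. The points share the same 4 libraries and the counting of each gene. The 27 members with the fewest counts behind 1 TPM had a median log2 ratio of 0.47 in the replicate 1 libraries (0.31 to 0.83), the next 28 had 0.48 (0.22 to 0.65) and the 27 with the most had 0.34 (-0.03 to 0.53). The ranges overlapped widely, and the lower median was that of the longest members, among which were RPLP0, RPL3 and RPL7L1. Over the 14778 other genes tested, rho was -0.53 in the replicate 1 libraries and 0.03 in the replicate 2 libraries. The 1417 other genes with the fewest counts behind 1 TPM (the lowest 10% of all) had medians of 0.40 and -0.02 in the 2 pairs, and the 1486 genes with the most (the highest 10%) had -0.40 and 0.00. Rows shorter than 1000 bases, members left out, took 9.44% of counts in CBX7 replicate 1 and 7.33% to 7.73% in the other libraries. The controls also differed from each other by length, to a smaller degree. Control replicate 1 over 2 had a median log2 ratio of 0.08 in the short 10% and -0.19 in the long 10%, where CBX7 replicate 1 over 2 had 0.49 and -0.58. Over the other genes rho with the counts behind 1 TPM was -0.36 for the controls and -0.63 for the CBX7 libraries, and over the members it was 0.29 and -0.47.

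When each library was corrected for its trend on the counts behind 1 TPM before the test, the median log2 fold change of the members was -0.03, 27 were above and 55 below 0, and 0 passed the edgeR test, where 0.242% of all genes did. The individual values then ran from -0.16 to 0.11. RPS29 moved from 0.44 to 0.03, RPL35 from 0.42 to 0.09, RPL10 from 0.08 to -0.16 and RPLP0 from 0.06 to -0.12. The lowest adjusted p among members was 0.461, for RPLP0 (edgeR). Whether the length trend of CBX7 replicate 1 arose from the RNA, the library or the cells was not tested.

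**Figure D4:**
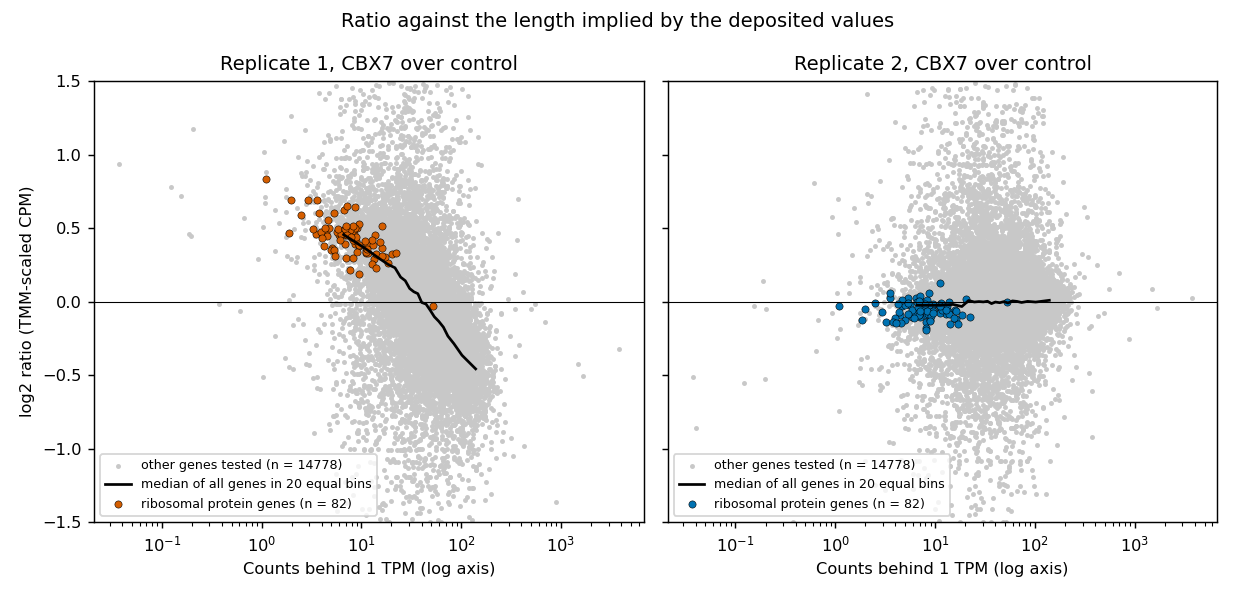
The log2 ratio of TMM-scaled CPM, CBX7 over control, is plotted against the counts behind 1 TPM (log axis) for all genes tested (grey) and the 82 ribosomal protein genes (coloured), with the replicate 1 libraries left and the replicate 2 libraries right. The black line, the median in 20 bins, falls from left to right for replicate 1 and stays near 0 for replicate 2, the ribosomal protein genes lie on its upper end, and ratios beyond the axis limits are not drawn.

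The order of members within the family differed between the pairs, with a Spearman's rho of 0.18 (Pearson's r of 0.14) between the replicate 1 and replicate 2 ratios over the 82 genes. RPL35 had log2 ratios of 0.69 and 0.06, and RPS6 had 0.30 and -0.15. RPL37 and RPL38, both small 60S proteins, had 0.50 and 0.69 in the replicate 1 libraries but -0.19 and -0.07 in the replicate 2 libraries. The 47 members with a pyrimidine start had medians of 0.45 and -0.06 in the 2 pairs, and the 19 without had 0.41 and -0.06.

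Leaving out 1 library showed how far the call rests on the spread of the CBX7 group. Without CBX7 replicate 2, the median log2 fold change of the members was 0.49, and 81 of 82 passed as higher (edgeR), where 18.3% of all genes were called higher and 35.5% in either direction. Without CBX7 replicate 1 the median was -0.12, 4 members were above 0 and 0 passed, where 2.59% of all genes were called. In both of these fits the remaining CBX7 library is taken to vary like the controls.

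Other genes of the translation machinery were set beside the family, and 0 of them passed in any list (edgeR, and 0 by DESeq2). These tests called 0.0202% and 0.451% of all genes, so few or no calls would come from lists of this size at those shares. The sole list gene with an unadjusted p under 0.05 was MRPL54 of the mitochondrial ribosome, with 11.1 and 11.1 CPM in control and 20.1 and 13.2 CPM with CBX7 (log2 fold change 0.58 ± 0.23, edgeR adjusted p = 0.951). Genes that belong to the cytosolic ribosome but lack a matching symbol were also measured. FAU, a fusion with a ubiquitin-like protein, had 0.47 in the replicate 1 libraries and -0.05 in the replicate 2 libraries. RACK1, the scaffold on the 40S head, had 0.34 and -0.13, and RPL36AL had 0.64 and 0.01.

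The 78 mitochondrial ribosomal protein genes, which serve the separate ribosome of the organelle, had a median log2 fold change of 0.21, with medians of 0.38 and 0.00 in the 2 pairs. Both CBX7 libraries were above both controls for 14 of them (17.9%, all genes 15.4%) and below both for 0 (all genes 14.8%). Of the 1417 other genes with the fewest counts behind 1 TPM, 18.1% were above both and 7.13% below both. Their median log2 fold change was also 0.21. With the correction on counts behind 1 TPM, the median of the mitochondrial list was 0.04. The mitochondrial list took 0.684% to 0.798% of TPM, with CBX7 replicate 1 highest. Genes encoded in mitochondrial DNA took 3.11% to 3.19% of counts in each library, and of TPM 5.61% in CBX7 replicate 1 and 6.48% to 7.20% in the others.

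The genes called initiation factors here (46) were taken by EIF symbol alone, not by role. They had a median of 0.07, with 0.16 and -0.03 in the 2 pairs, and 31 were above 0 (all genes 50.3%). Both CBX7 libraries were above both controls for 4 of them (8.70%, all genes 15.4%), EIF1AX, EIF2B5, EIF2S1 and EIF3M, and below both for 3 (6.52%, all genes 14.8%), EIF5A2, EIF4B and EIF4A2. EIF3M, a subunit of the EIF3 complex, had 169.9 and 167 CPM in control and 225 and 172 CPM with CBX7. EIF5A2, a paralog of the hypusine-bearing factor EIF5A, had 38.3 and 42.2 CPM in control and 32.1 and 35.1 CPM with CBX7, with both CBX7 libraries below both controls. EIF4B, a helicase cofactor with a TOP message, had 707 and 725 CPM in control and 591 and 696 CPM with CBX7, again without overlap. None of the list passed the edgeR test (adjusted p = 0.951 for EIF3M, EIF5A2 and EIF4B).

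The elongation factor list held 6 chosen genes with EEF symbols and does not cover the class. It had a median of 0.10. In the replicate 2 libraries all 6 were below 0 with a median of -0.10, where 48.6% of all genes were above 0. EEF2, the translocase, had 2427 and 2352 CPM in control and 2327 and 2158 CPM with CBX7, so the groups did not overlap. Of the 6 genes, 1 was thus below both controls (16.7%, all genes 14.8%) and 0 were above both (all genes 15.4%). EEF1A1, which delivers aminoacyl-tRNA, had 11742 and 11161 CPM in control and 12135 and 9978 CPM with CBX7. The list of 20 other messages known to begin with a TOP motif had medians of 0.20 and -0.07 in the 2 pairs, but it shares 5 genes with the elongation factors, 5 with the initiation factors and 1 (NPM1) with the biogenesis list, so its values are not separate from theirs. PABPC1, the poly(A)-binding protein, had 2026, 2059, 2058 and 2051 CPM, with CBX7 libraries between the controls.

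Ribosome biogenesis genes (36) had a median of 0.09, with 0.19 and 0.01 in the 2 pairs, and 0.06 with the correction on counts behind 1 TPM. Both CBX7 libraries were above both controls for 9 of them (25%, all genes 15.4%) and below both for 0 (all genes 14.8%). The 9 included EBNA1BP2, an assembly factor of the 60S subunit, with 228 and 221 CPM in control and 334 and 233 CPM with CBX7. MYC, which drives ribosome production, had 106 and 106 CPM in control and 129 and 111 CPM with CBX7. GAR1, of the H/ACA particle, had 41.783 and 36.961 CPM in control and 50.684 and 41.805 CPM with CBX7, so CBX7 replicate 2 was barely above control replicate 1. None passed the edgeR test.

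**Figure D5:**
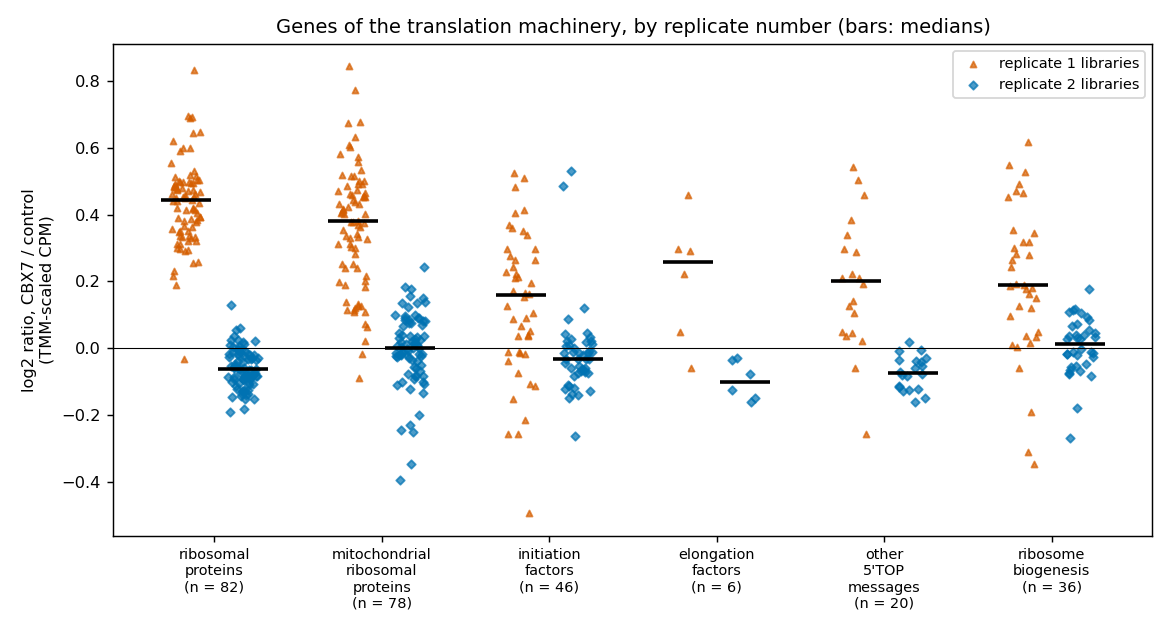
Points are genes and bars medians of the log2 ratio of TMM-scaled CPM, CBX7 over control, in 6 lists, with the replicate 1 libraries as triangles and the replicate 2 libraries as diamonds. The medians in the replicate 1 libraries run from 0.16 (initiation factors) to 0.44 (the 82 ribosomal protein genes), and those in the replicate 2 libraries lie between -0.10 and 0.01.

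Ribosomal protein genes have many processed pseudogenes that share their sequence, so counts can be split between copies. The table held 1143 rows named as pseudogenes of 77 members, and 310 of these rows had any count. The pseudogene rows took over 5% of the counts in some library for 4 members. For RPL23A they took 42.4% to 47.4%, mostly in RPL23AP42 with 7858 and 7054 counts in control and 12450 and 6478 counts with CBX7. For RPL21 they took 16.3% to 19.9%, and for RPS2 6.57% to 7.28%. For RPL22 the share was 5.63% in CBX7 replicate 1 and 1.34% to 2.02% elsewhere, since RPL22P1 had 244 and 189 counts in control and 961 and 132 counts with CBX7. The counts of these 4 genes are uncertain at least to that extent. In TPM the rows weigh differently. RPL23AP42 had 2008 and 2067 TPM in control and 2469 and 1832 TPM with CBX7, above RPL23A itself (945 and 918, then 1194 and 871 TPM). RPS28P7, a row of 210.0 bases, had 598 and 622 TPM in control and 803 and 642 TPM with CBX7, where RPS28 had 579.5 and 578.5 TPM, then 780.1 and 557 TPM. The TPM of RPL23A and RPS28 is uncertain for the same split. With pseudogene counts added to their parents, the median log2 fold change of the members was 0.22 and 0 passed the edgeR test, where 0.0202% of all genes did. RPL39P3, a row of 156 bases, had 86.1 to 192 counts but 2815 to 3603 TPM, so a few counts on a very short row weighed heavily in TPM. Fractional counts occurred in 60 members, and 22 had whole counts in every library.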

How the data were processed

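RNA of 4 T24 libraries (2 control, 2 CBX7-overexpressing) was measured. The authors deposited estimated counts per gene, which need not be whole (88.2% to 88.9% of values were), and TPM per library, as well as gene length. Columns of the authors' comparison (a fold as a ratio, its log2, a p-value and an adjusted one) were also deposited and were not used. The submitters' processing notes name cutadapt 1.9.1, HISAT2 2.0.1, HTSeq 0.6.1, DESeq2 and hg19. The tool behind the fractional counts is not given in the sources used here. Of the gene identifiers, 58516 (96.5%) were found in GENCODE 29 on GRCh38.

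Counts were rounded, filtered with filterByExpr (all 82 members passed) and TMM-scaled, and condition alone was tested by quasi-likelihood (glmQLFit, glmQLFTest) in edgeR 4.0.16 under R 4.3.3. Standard errors are the log2 fold change over the square root of F. DESeq2 1.42.0 and limma 3.58.1 (log2(TPM + 1)) were alternatives, together with other normalizations and filters, length corrections and left-out libraries. Exact permutation was used for shares. Where no count was seen, up to 3 counts (0.119 to 0.144 CPM) remain possible from counting error alone. In simulated counts without a length trend, for 14862 genes of which 200 changed, edgeR recovered 190 with 14 false calls. With the replicate block it recovered 189 with 16 false calls. With a length trend simulated in CBX7 replicate 1, edgeR recovered 184 with 10 false calls, and 189 with 5 with the length correction. Recovery of a shift of 0.21, the members' median, at the spread of these libraries was not tested.

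The members and gene lists were chosen with earlier results of these data known. The genes named were the 5 highest and 5 lowest by log2 fold change, the 5 highest and 5 lowest by TPM, the 5 with the largest difference within a group, the paralog pairs, 10 genes by role, and genes of the lists. RPL37, RPL38, RPL23A, RPL21, RPS15, RPS26 and RPS4X were named after their values were seen, as were examples from the lists. CBX7 checked the labels. A few genes are not reported by name here.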

Additional observations from a re-analysis of the deposited data

How the results depend on the processing

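The count of members called was 0 in the fits with all 4 libraries and 0 to 81 when 1 library was left out, with 81 without CBX7 replicate 2. Their median log2 fold change was -0.12 (without CBX7 replicate 1) to 0.49 (without CBX7 replicate 2), and -0.0254 with the correction on counts behind 1 TPM, which was chosen after seeing the data. In the replicate 1 libraries the median ratio of 0.44 became 0.16 with TPM, 0.0603 with the correction on deposited length and -0.0228 with that on counts behind 1 TPM. The difference in the share of TPM was -0.97 to 3.03 percentage points with 1 library left out. The replicate 2 median stayed below 0 in each alternative run. The 3 genes called among all genes became 67 with DESeq2, 265 with no filter, 36 with the correction on counts behind 1 TPM, and 45 to 5491 with 1 library left out, and the cause was not tested.

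With the replicate number as a block, 361 genes were called, 270 with the length correction, 332 with that on counts behind 1 TPM and 350 with the newer quasi-likelihood form, and 0 members in each. The block gave a median of 0.18 for the members, and -0.0253 with the correction on counts behind 1 TPM. The lowest member adjusted p (edgeR) was 0.273 with the block alone, 0.251 with the newer form and 0.220 with the correction on counts behind 1 TPM. The deviations of same-numbered libraries correlated at 0.31 over all genes and 0.14 over members, and 2 pairs are too few to show a pairing. Of the 30 genes named by rule, 28 changed sign, or moved by more than 1 SD of their log2 ratios in the replicate 1 and 2 libraries, without CBX7 replicate 1. No share over all genes is given for that count. With 2 libraries per group, a shift of 0.21 was within the spread of the CBX7 libraries.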
